A study of Mus musculus with 75 samples.

Results

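Lung RNA of BLEO-IPF mice taken 28 days after bleomycin (12 mice) was compared with lung RNA taken 21 days after bleomycin (12 mice), which are 24 of the 75 mice of the time course. Libraries were assigned to a day by matching the library name in the labels to the column of the count table, and mice are numbered as in the labels. All were male C57BL/6JRj mice of 12 to 14 weeks given bleomycin sulphate into the trachea once, and only mice that had lost between 5% and 17% of body weight on day 6 were randomized to a day. Both groups thus shared the treatment and the selection and differed in the day on which they were killed. RNA came from the whole inferior lobe and was sequenced as polyadenylated RNA. In such bulk tissue fewer cells of a type and less RNA per cell cannot be told apart. The other mice were 10 controls (saline in the labels, untreated in the protocol) and BLEO-IPF mice of days 7 (10), 14 (12), 35 (12) and 42 (7).

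Bleomycin breaks DNA and injures the alveolar epithelium. In mice a single dose is followed by inflammation, by proliferation of epithelial cells, fibroblasts, macrophages and lymphocytes, and by deposition of collagen that in this strain partly resolves over the following weeks. Before a cell copies its DNA, the origin recognition complex, CDC6 and CDT1 load the ring-shaped MCM2-7 helicase onto replication origins, a step called licensing. The genes of these proteins are transcribed by E2F factors late in G1 phase, so their RNA is found in cells that are about to replicate or are replicating their DNA.

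Some of the genes that license and copy DNA were lower on day 28 than on day 21, while most genes called higher were at their highest in a single mouse. With all 12 day 28 mice, 51 of 16221 genes (0.314%) were lower and 67 (0.413%) were higher on day 28 at an adjusted p under 0.05 in edgeR's quasi-likelihood test. Of the 51, 28 were in lists of cell cycle, replication, repair and mitosis genes given below, partly chosen after values were seen. The rest were in none of these lists. Without mouse 10 of day 28, whose library carried skeletal muscle, heart and fat transcripts, 5 of 16204 genes (0.0309%) were lower and 2 (0.0123%) were higher. The 5 were *Nrm*, *Mcm3*, *Cdt1*, *Mcm4* and *Orc1*, and the 2 were *Cyp1a1* and the immunoglobulin segment *Igkv4-86*, each of which rested on 1 other mouse. With only the 24 mice of both days in the fit, *Nrm* alone was called. At an unadjusted p under 0.05, 1088 genes (6.71%) were lower and 879 (5.42%) higher with mouse 10, against 847 (5.23%) and 500 (3.09%) without it. The median log2 fold change of all tested genes was 0.0053 with mouse 10. In no gene did the 12 mice of one day all lie outside the range of the 12 mice of the other day.

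Levels are given as CPM, the reads of a gene as a share of all counted reads, scaled between mice by TMM (trimmed mean of M-values) normalization, and fold changes as log2 of day 28 over day 21 with the standard error (SE). Reads assigned to genes numbered 9800483 to 12640351 per library on day 21 and 9249037 to 13704519 on day 28, so that 1 CPM corresponds to about 10 reads. Libraries within a group differed from each other by more than sampling noise in all pairs, and each was counted as 1 mouse.

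The promoters of licensing genes are shown because E2F factors are known to act on these genes and the genes moved together. The sequences run from 250 bases before to 50 bases after the RefSeq gene start (assembly GRCm38.p6), 5′ to 3′ on the strand of the gene. Capitals mark a match to one of the E2F motif letters TTTGGCGC, TTTCCCGC, TTTGCCGC or TTTCGCGC, searched on both strands. *Mcm3* (chr1:20820263-20820562, minus strand) had matches starting 19 and 38 bases after the gene start, *Cdt1* (chr8:122567765-122568064, plus strand) had 1 match 32 bases after it, and *Orc1* (chr4:108579204-108579503, plus strand) had 1 match 27 bases before it. *Mcm6* (chr1:128359656-128359955, minus strand) had 3 matches starting 110, 106 and 47 bases before the start, the first pair of which overlap.
Mcm3: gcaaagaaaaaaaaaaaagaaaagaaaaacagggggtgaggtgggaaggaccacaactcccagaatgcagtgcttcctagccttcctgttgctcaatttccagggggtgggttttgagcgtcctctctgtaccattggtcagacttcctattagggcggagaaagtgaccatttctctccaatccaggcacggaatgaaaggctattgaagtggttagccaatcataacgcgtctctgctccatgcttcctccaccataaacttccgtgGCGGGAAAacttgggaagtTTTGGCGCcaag
Cdt1: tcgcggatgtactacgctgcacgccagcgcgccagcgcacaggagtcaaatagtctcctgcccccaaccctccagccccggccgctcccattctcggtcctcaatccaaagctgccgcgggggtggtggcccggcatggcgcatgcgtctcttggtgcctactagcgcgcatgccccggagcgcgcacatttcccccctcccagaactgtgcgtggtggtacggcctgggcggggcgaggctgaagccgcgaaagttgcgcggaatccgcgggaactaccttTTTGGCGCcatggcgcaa
Orc1: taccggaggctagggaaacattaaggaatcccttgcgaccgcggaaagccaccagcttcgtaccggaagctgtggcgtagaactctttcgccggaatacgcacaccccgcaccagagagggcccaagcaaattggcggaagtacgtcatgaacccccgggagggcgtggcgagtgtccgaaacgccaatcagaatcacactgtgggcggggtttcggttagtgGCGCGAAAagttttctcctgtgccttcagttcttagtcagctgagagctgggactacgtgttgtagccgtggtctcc
Mcm6: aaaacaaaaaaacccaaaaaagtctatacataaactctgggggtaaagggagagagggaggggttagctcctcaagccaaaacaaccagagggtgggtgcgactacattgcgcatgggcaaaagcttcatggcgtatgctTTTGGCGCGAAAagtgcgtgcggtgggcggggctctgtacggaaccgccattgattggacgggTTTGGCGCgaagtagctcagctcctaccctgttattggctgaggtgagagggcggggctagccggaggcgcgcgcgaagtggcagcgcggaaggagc
A match was present in the promoter of 13 of the 43 genes lower on day 28 that had a promoter in the table (30.2%), in 0 of 42 genes higher on day 28, in 518 of 11956 tested genes (4.33%) and in 704 of all 27025 genes (2.6%). Of the MCM2-7 genes, 4 of 5 had a match (80%), *Mcm2* having none. The *Nrm* promoter (chr17:35861068-35861367, plus strand) held none of these letters. *Mcm4* had no promoter entry and was not searched. Of the 67 genes higher on day 28, 55 were at their highest in mouse 10 of that day. Of the 5 genes lower with and without mouse 10, 4 had a promoter and 3 of these a match. The lists come from these same data. A match is a stretch of letters and not a measured binding site, and whether E2F factors lowered these genes was not tested.

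*Nrm* encodes nurim, a membrane protein of the inner nuclear envelope, and lies on chromosome 17 (GRCm38, chr17:35861318-35865402, plus strand). Its level on day 21 ran from 9.79 CPM over a median of 11.4 to 14.3 CPM, and on day 28 from 7.09 over 8.38 to 10.1 CPM. All 12 day 28 mice lay below the day 21 median and 11 lay below the lowest day 21 mouse. *Nrm* fell by 0.46 on the log2 scale (SE 0.078, edgeR adjusted p = 0.000387), and by 0.46 without mouse 10 (adjusted p = 0.00395). The antisense gene *Ppp1r18os* overlaps it with 280 counts against 2612 in the 24 mice, and whether strand was used in counting is not given in the sources used here.

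*Mcm3* and *Mcm4* encode subunits of the replicative helicase. *Mcm3* (chr1:20802968-20820312, minus strand) had 31.2, 46 and 67.7 CPM as the lowest, median and highest value on day 21 and 25, 32.3 and 41.1 CPM on day 28. It was below the day 21 median in 12 of 12 day 28 mice and below the lowest day 21 mouse in 6. The log2 fold change was -0.54 (SE 0.094, edgeR adjusted p = 0.000445) and -0.52 without mouse 10 (adjusted p = 0.00624). *Mcm4* (chr16:15623897-15637400, minus strand) had 34.8, 45.3 and 60.8 CPM on day 21 and 32.3, 37.2 and 44.2 CPM on day 28. The ranges overlapped, with all 12 day 28 mice under the day 21 median and 3 under the lowest day 21 mouse. *Mcm4* had a log2 fold change of -0.33 (SE 0.068, edgeR adjusted p = 0.00389), and of -0.33 without mouse 10 (adjusted p = 0.0388).

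*Cdt1* (chr8:122568015-122573554, plus strand), which loads the helicase, had 8.16, 12.8 and 18.4 CPM as lowest, median and highest level on day 21 and 7.07, 9.06 and 10.6 CPM on day 28. All day 28 mice were below the day 21 median, and 4 were below the lowest day 21 mouse. The log2 fold change was -0.57 (SE 0.105, edgeR adjusted p = 0.000834), and -0.56 without mouse 10 (adjusted p = 0.0107). *Orc1* (chr4:108579423-108614833, plus strand), the subunit of the origin recognition complex that is made anew in each cycle, was chosen after its values were seen because its mean level was too low for the rule on named genes. It had 0.653, 1.44 and 2.72 CPM on day 21 and 0.481, 0.630 and 1.40 CPM on day 28, from only 5 to 29 counts per mouse. Its day 28 levels were below the day 21 median in 12 of 12 mice, and the log2 fold change of -1.04 (SE 0.21, edgeR adjusted p = 0.00345) was the lowest of the genes called lower; without mouse 10 it was -0.99 (adjusted p = 0.0388). The antisense gene *Gm12743* overlaps *Orc1* with 135 counts against 302.

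Set beside the other days, the 5 genes were high from day 7 to day 21 and lower from day 28 on. The mean of *Mcm3* was 27.4 ± 2.07 CPM (SD, n = 10) in CTRL and 46.1 ± 6.27 (n = 10), 46.9 ± 7.25 (n = 12) and 47.6 ± 11.0 (n = 12) on days 7, 14 and 21. It was then 32.7 ± 5.74 (n = 12), 29.9 ± 4.50 (n = 12) and 29.8 ± 3.71 (n = 7) on days 28, 35 and 42. Against CTRL, *Mcm3* and *Cdt1* were still higher on day 28 (log2 fold change 0.26 and 0.27, edgeR adjusted p = 0.0324 and 0.0451), and *Nrm*, *Mcm4* and *Orc1* did not pass that test (-0.18, -0.09 and 0.40). *Cdt1* had means of 7.26 CPM in CTRL, 13 on day 21, 8.77 on day 28 and 7.23 on day 42, and *Orc1* had 0.581, 1.59, 0.772 and 0.663 CPM. *Nrm* and *Mcm4* had day 28 means (8.52 and 37.6 CPM) below those of CTRL (9.67 and 39.96 CPM), by less than 1 SD of the control mice for *Nrm*. All 51 genes lower on day 28 than on day 21 were higher on day 14 than in CTRL, where 5262 of all genes (32.4%) were higher. On day 28, 37 of the 51 were still higher than in CTRL and 0 were lower, against 3906 of all genes higher (24.1%); this comparison shares the day 28 mice with the one against day 21.

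**Figure D1:**
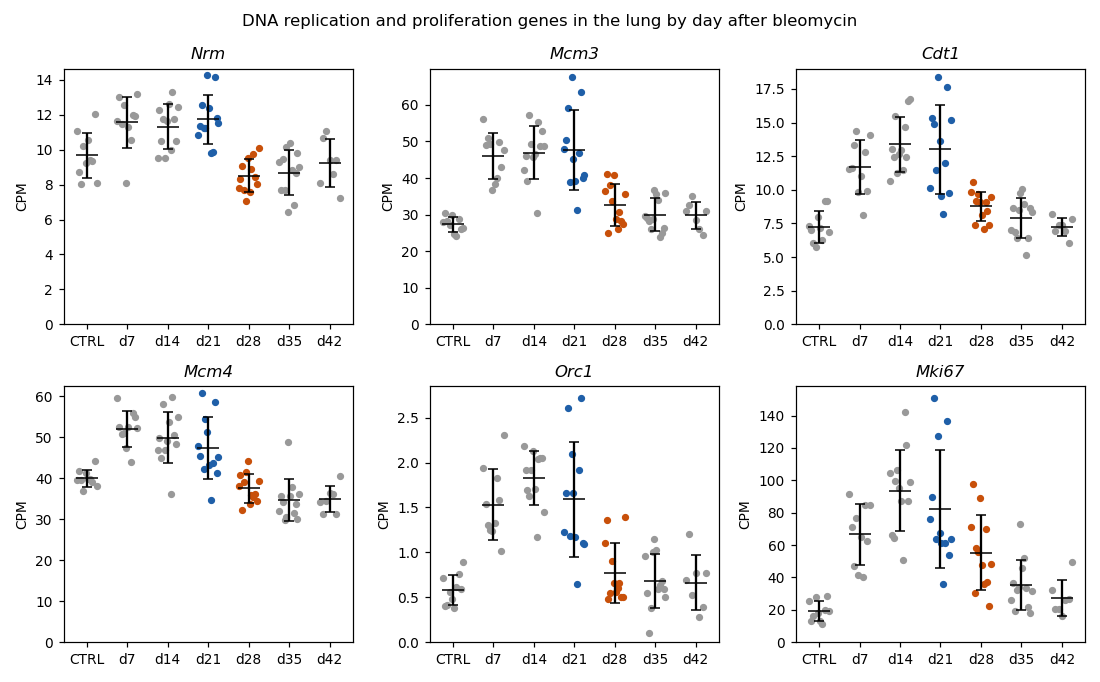
Level in CPM (vertical axis, linear from 0) of 6 genes in each mouse of CTRL and of days 7 to 42 after bleomycin (horizontal axis), with day 21 in blue, day 28 in orange and the black bar and whiskers giving the mean ± SD. *Nrm*, *Mcm3*, *Cdt1*, *Mcm4* and *Orc1* were lower on day 28 than on day 21, and *Mki67*, with medians of 65.5 and 52 CPM, did not pass the test.

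Beyond these 5, the genes lower on day 28 with mouse 10 in the comparison had an adjusted p between 0.0591 (*Uhrf1*) and 0.211 without it, while their fold changes moved little. The 51 had a median log2 fold change of -0.64 with mouse 10 and of -0.59 without it, and a median SE of 0.158 and 0.157. Without it 51 of 51 remained negative with an unadjusted p under 0.05 in edgeR, against 5.23% of all genes. The 51 were selected for a low p in a fit that shares all the other mice, so this count was largely set by the selection. The largest unadjusted p that was still called went from 0.000358 to 1.67e-05 when the mouse was left out, and 28 of the 51 stayed under the former value. In 25 of the 51 genes all 12 day 28 mice were below the day 21 median. These genes were selected in the same mice, and the share of all genes is not given here, so the count is descriptive only. Mouse 10 held a median of 6.77% of the day 28 CPM of these genes, where an equal share is 8.33%.

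Ordered by their place in the replication cycle, the members of the other complexes were chosen after their values were seen, as lists of 124 genes of replication, repair and mitosis, of which 26 were lower and 0 higher (median log2 fold change -0.34, against 0.0053 for all genes). Without mouse 10, 4 were lower at the adjusted threshold and 89 at an unadjusted p under 0.05. The shares of all genes were 0.0309% and 5.23% without the mouse, and 0.314% at the adjusted threshold with it. Of the origin recognition complex only *Orc1* was called. All 6 subunits of the MCM2-7 helicase were lower, with a median of -0.45, of which *Mcm3* and *Mcm4* remained called without mouse 10. With only the 24 mice of both days in the fit, 0 of the 6 were called by edgeR, at a median of -0.44.

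*Mcm2* had 26.9, 35.0 and 47 CPM as lowest, median and highest level on day 21 and 18.8, 24.9 and 34.8 CPM on day 28 (log2 fold change -0.50, edgeR adjusted p = 0.00774). *Mcm5* had 20.4, 34 and 52.9 CPM and then 13.3, 23.1 and 33.4 CPM (-0.61, adjusted p = 0.00779). *Mcm6* had 46.3, 63 and 91.1 CPM and then 35.2, 52.5 and 62 CPM (-0.40, adjusted p = 0.00646). In these 3 genes 12 of 12 day 28 mice were below the day 21 median. *Mcm7* (-0.37, adjusted p = 0.0146) overlaps *Cops6* (19062 counts) and *Ap4m1* (7800 counts) on the other strand, against 8682 counts of its own, and its level is less certain. Without mouse 10 the adjusted p of *Mcm2*, *Mcm5* and *Mcm6* was 0.0674, and that of *Mcm7* was 0.0745.

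Other steps of replication were represented by single genes. Of 12 replicative polymerase and primase genes, 1 was called lower and 0 higher, at a median log2 fold change of -0.14. *Cdc6*, the loading factor that acts with CDT1, had 3.43, 5.87 and 10.5 CPM on day 21 and 2.22, 3.86 and 5.24 CPM on day 28 (log2 fold change -0.82, edgeR adjusted p = 0.0110). *Uhrf1*, which recruits the maintenance DNA methyltransferase to newly copied DNA, had 7.18, 15.5 and 27.5 CPM and then 3.84, 9.17 and 16.4 CPM (-0.90, adjusted p = 0.00577). *Rrm2*, the regulated subunit of ribonucleotide reductase, had 8.41, 20.1 and 38.4 CPM and then 6.74, 12.7 and 21.4 CPM (-0.76, adjusted p = 0.0230). Ranges overlapped in each, with 10 to 12 day 28 mice below the day 21 median. *Cdc45* and *Mcm10* of the active helicase, the DNA ligase *Lig1*, the histone chaperone subunits *Chaf1a* and *Chaf1b*, the repair gene *Brca1* and the S phase cyclin *Ccne2* were also lower. *E2f1* had a log2 fold change of -0.36 (edgeR adjusted p = 0.0406). It was the only 1 called of 11 genes of the E2F family and pocket proteins. Their median was -0.021, with 5 positive and 6 negative. *Pcna*, the sliding clamp, had a log2 fold change of -0.24 and did not pass (adjusted p = 0.0542). None of the genes in this paragraph passed without mouse 10. Genes on the other strand overlap *Cdc45* (*Ufd1*, 15526 counts against 1509) and *Ccne2* (*Ints8*, 10677 against 1575). The same holds for *Chaf1a* (*Ubxn6*, 14660 against 4167) and *Lig1* (*Zswim9*, 3379 against 6155), so the levels of these genes are less certain.

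A list of 40 cell cycle genes, with functions from licensing to mitosis, had 15 genes lower and 0 higher. Among all genes 0.314% were lower, and 6.71% at an unadjusted p under 0.05. All 40 had a negative log2 fold change and an unadjusted p under 0.05, with and without mouse 10, and the median was -0.61 and -0.58. Without the mouse 3 of the 40 passed the adjusted threshold, namely *Mcm3*, *Cdt1* and *Mcm4*, and with the 24 mice alone 0 passed, at a median of -0.60. All of them were measured in the same mice, so these counts are not 40 separate observations.

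*Mki67*, the proliferation marker Ki-67, had 36.1, 65.5 and 151 CPM on day 21 and 22.6, 52 and 97.6 CPM on day 28. Its log2 fold change was -0.57 with a 95% confidence interval from -0.99 to -0.16 (edgeR adjusted p = 0.193), and 8 of 12 day 28 mice lay below the day 21 median. *Mki67* therefore had a fold change similar to *Mcm3* with a SE of 0.21 in place of 0.094. The summed level of the 40 genes was highest in mice 10, 3 and 5 of day 21, at 1415, 1384 and 1348 CPM, ahead of 988 CPM in the next day 21 mouse. These 3 mice also had the highest summed collagen level of their day, 21760, 16120 and 19110 CPM against 11530 CPM in the next. On day 28 the 3 mice with the highest collagen sums (17090, 15200 and 13360 CPM in mice 5, 1 and 4) had cell cycle sums of 742, 745 and 681 CPM. The highest cell cycle sums of day 28 were 978 and 903 CPM, in mice 2 and 6.

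Interferon-stimulated genes were the other group with genes called lower. Of 30 tested, 2 were lower and 0 higher, and 22 had an unadjusted p under 0.05 in the lower direction (18 without mouse 10, when 0 were called). Among all genes that share was 6.71% with mouse 10 and 5.23% without it. The median log2 fold change of the 30 genes was -0.30. *Isg15*, a ubiquitin-like protein, had 11.7, 19.2 and 47.7 CPM on day 21 and 9.08, 13.2 and 16.9 CPM on day 28. It was below the day 21 median in 12 of 12 mice (log2 fold change -0.71, SE 0.18, edgeR adjusted p = 0.0343, 0.147 without mouse 10). *Ifit1*, which binds foreign RNA, had 29.5, 43 and 94.3 CPM and then 24.3, 32.2 and 42.7 CPM. It too was below the day 21 median in all day 28 mice (-0.65, SE 0.17, adjusted p = 0.0454, 0.181 without mouse 10). Of 24 refits that each left out 1 mouse, *Isg15* was called in 16 and *Ifit1* in 10. None of the 30 genes was called without mouse 3, 5, 10 or 12 of day 21 or mouse 3, 7, 8 or 10 of day 28, nor with the 24 mice alone or with the replicate number as a block, while the median stayed between -0.34 and -0.24 over all alternatives.

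Most genes called higher on day 28 had their highest level in 1 library, and 16 of the 67 were in the skeletal muscle, cardiac or adipose lists. In 55 of the 67, mouse 10 had the highest level of the 12 day 28 mice, in 52 at least 2 times and in 30 at least 10 times that of the next mouse. A median of 63.7% of the day 28 CPM of these genes was in mouse 10. Their median log2 fold change was 2.19 with the mouse and 0.72 without it, and of the 65 that could be tested without it 31 had an unadjusted p under 0.05. The 14 tested skeletal muscle genes counted 9 higher with mouse 10 and 0 without it, the 10 adipose genes 6 and 0, and the 14 cardiac genes 1 and 0. Among all genes 0.413% were higher with mouse 10 and 0.0123% without it.

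*Tnnt3*, a troponin of fast skeletal muscle, had 0.909, 1.52 and 3.93 CPM on day 21 and 0.932, 1.62 and 295 CPM on day 28. The value of 295 CPM was that of mouse 10, and the next was 2.72 CPM. The log2 fold change was 3.81 (SE 0.64, edgeR adjusted p = 0.000387) with mouse 10 and -0.15 without it (adjusted p = 0.905). *Nppa*, the atrial natriuretic peptide, reached 717 CPM in mouse 10 and at most 4.45 CPM in another day 28 mouse, and had the largest log2 fold change, 8.55 (adjusted p = 6.63e-06; 0.209 without mouse 10). *Adipoq*, the fat cell hormone adiponectin, reached 196 CPM in mouse 10, with a day 21 maximum of 0.898 CPM. The muscle genes *Atp2a1* and *Mylpf*, the fat genes *Plin1* and *Pck1*, and *Cyp2e1*, *Cfd*, *Col6a6*, *Fabp4* and *Cidec* of other lists also had their highest level in mouse 10. None of these genes passed without it, and *Col6a6* was then too low to be tested.

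The summed level of the skeletal muscle list was 3313 CPM in mouse 10, between 30.4 and 123 CPM in the other day 28 mice and between 39 and 72.6 CPM on day 21. The cardiac list summed to 2993 CPM in it, against 83.6 to 1037 CPM in the others and 105 to 461 CPM on day 21, and mice 4, 8 and 11 of day 28 (593, 824 and 1037 CPM) were also above the day 21 range. The adipose list summed to 1805 CPM in it and to between 8.59 and 45.3 CPM in the others. In mouse 10, 21 of 22 skeletal muscle, 15 of 15 cardiac and 12 of 14 adipose genes were at their highest among the day 28 mice. The summed B cell level was also highest in it, 3804 CPM against 174 to 1675 CPM, and *Ighm* alone gave 2902 of the 3804 CPM. How these transcripts came into the library was not tested.

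**Figure D2:**
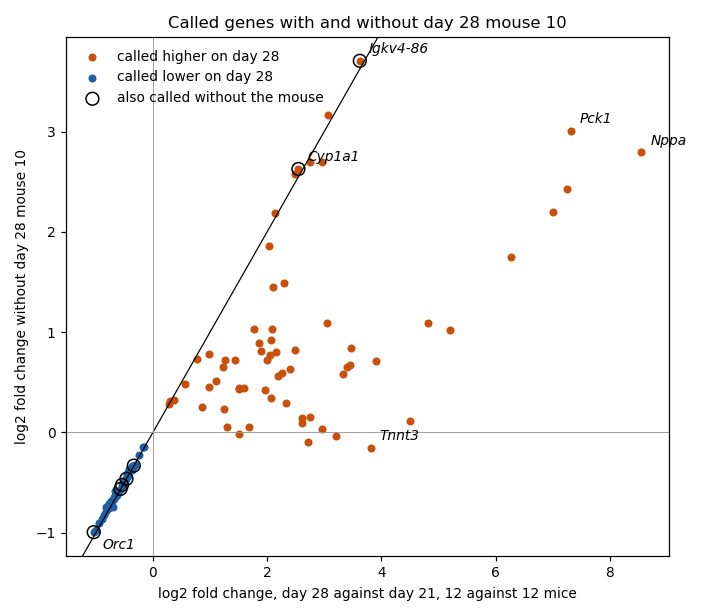
Log2 fold change of the genes called with all mice, computed with 12 day 28 mice (horizontal axis) and without mouse 10 (vertical axis), with orange for genes called higher, blue for genes called lower, and rings around genes also called without the mouse. The blue points lie near the line of equal values, whereas many orange points, such as *Tnnt3* (3.81 and -0.15), lie far under it.

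**Figure D3:**
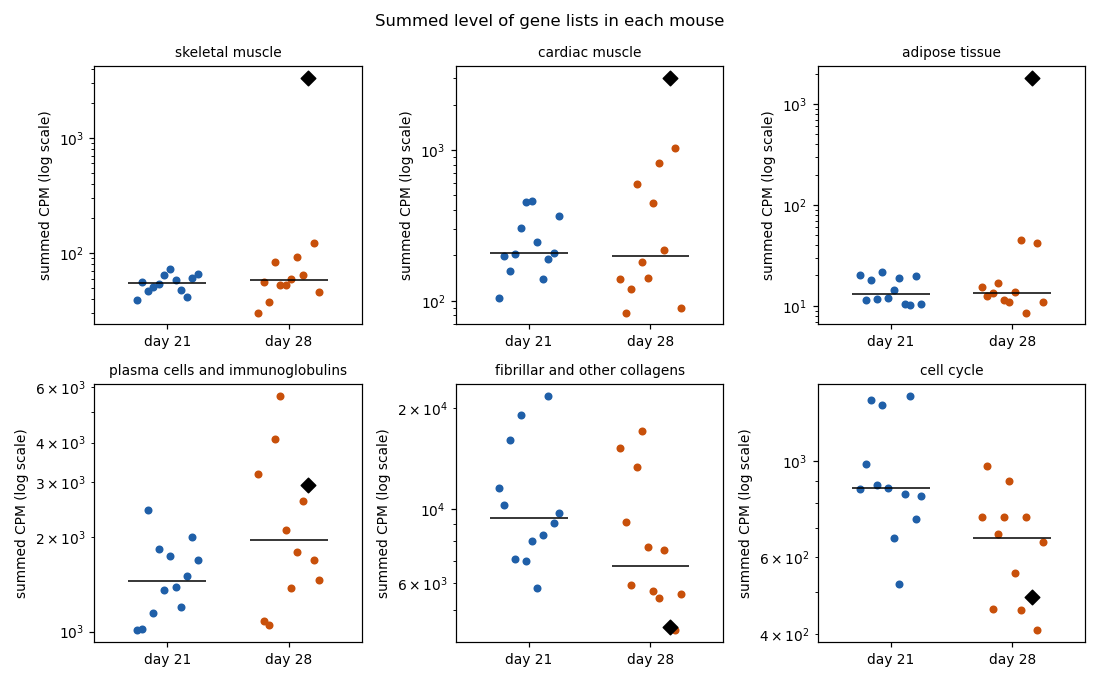
Summed CPM of 6 gene lists (vertical axes, log scale) in each mouse of day 21 and day 28, with horizontal bars at the medians and a black diamond for mouse 10 of day 28. The diamond stands apart in skeletal muscle (3313 CPM), cardiac muscle (2993 CPM) and adipose tissue (1805 CPM) and lies within the range of the other mice for the collagens and the cell cycle.

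Both genes that were higher without mouse 10 rested on another single mouse. *Cyp1a1*, the detoxifying enzyme induced through the aryl hydrocarbon receptor, had 0.315, 1.03 and 2.79 CPM on day 21 and 0.194, 1.22 and 70.4 CPM on day 28. The value of 70.4 CPM was that of mouse 3, and the next was 4.27 CPM. Its log2 fold change was 2.55 (SE 0.56, edgeR adjusted p = 0.0102) and 0.47 without mouse 3 (adjusted p = 0.753). *Igkv4-86* reached 30.6 CPM in mouse 4, with 2.42 CPM in the next mouse. Without mouse 4 its log2 fold change was 1.42 (adjusted p = 0.377). Without mice 3, 4 and 10 together, 0 genes were higher and 2 were lower (*Mcm3* and *Nrm*), with 365 and 602 at an unadjusted p under 0.05 in edgeR.

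Immunoglobulin genes, the product of B cells and plasma cells, had higher medians on day 28 with a wide spread. Of the 20 tested plasma cell and immunoglobulin genes, 0 were called, 10 had an unadjusted p under 0.05 in the higher direction (6 without mouse 10), and the median log2 fold change was 0.65. Among all genes 5.42% were in that direction with mouse 10 and 3.09% without it. *Igkc*, the kappa light chain constant region, had 60.8, 209 and 442 CPM on day 21 and 65.5, 477 and 1459 CPM on day 28. The log2 fold change of *Igkc* was 1.46 with a 95% confidence interval from 0.60 to 2.32 (edgeR adjusted p = 0.0839), and 2 of the 12 day 28 mice lay below the day 21 median. *Ighm*, the IgM heavy chain, was called (log2 fold change 2.11, adjusted p = 0.0233), with 2902 CPM in mouse 10, 1357 CPM in the next mouse and an adjusted p of 0.277 without mouse 10. Of 125 variable segments, a set formed after values were seen, 8 were higher (1 without mouse 10) with a median of 1.35. Among all genes 0.413% were higher, and 0.0123% without mouse 10. Near-identical segments share reads, so that single segments are uncertain.

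A few of the other genes called higher had their highest level in another mouse than 10 or differed in most mice, and they were chosen after their values were seen. *Dbndd2* had 7.76, 9.30 and 10.5 CPM on day 21 and 9.98, 10.9 and 14.0 CPM on day 28. All 12 day 28 mice were above the day 21 median (log2 fold change 0.31, SE 0.073, edgeR adjusted p = 0.0213, 0.0745 without mouse 10). *Nr3c2*, the mineralocorticoid receptor, had 7.03, 12.0 and 19.8 CPM and then 9.30, 17.0 and 29 CPM. Its log2 fold change was 0.56 (SE 0.14, adjusted p = 0.0298, 0.187 without mouse 10).

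The genes of matrix deposition, the macrophage state and the alveolar epithelium that define the fibrotic lung did not pass the test between these days. *Col1a1*, a chain of type I collagen, had 581, 1348 and 4910 CPM on day 21 and 398, 888 and 3274 CPM on day 28, a log2 fold change of -0.58 (95% confidence interval -1.16 to -0.00080, edgeR adjusted p = 0.412). *Col3a1* had 1761, 2599 and 4592 CPM and then 1078, 1861 and 4342 CPM (-0.36, -0.69 to -0.021, adjusted p = 0.375). *Fn1*, fibronectin, had 1185, 2783 and 8210 CPM and then 842, 1823 and 6904 CPM (-0.51, -1.12 to 0.096, adjusted p = 0.518). In these 3 genes the highest mouse of each day was more than 2 times the lowest, and the ranges of the days overlapped. *Acta2*, the smooth muscle actin of myofibroblasts, had an interval from -0.54 to 0.047, and *Tnc*, tenascin C, one from -1.34 to -0.029. *Timp1*, an inhibitor of matrix proteases, had the largest estimate of the always-named genes that did not pass, -1.01 with an interval from -1.79 to -0.23 (adjusted p = 0.235). Mouse 10 was the lowest day 28 mouse for *Col1a1*, *Acta2* and *Timp1*. Without it the log2 fold changes were -0.49 (*Col1a1*), -0.31 (*Col3a1*), -0.43 (*Fn1*), -0.20 (*Acta2*), -0.58 (*Tnc*) and -0.91 (*Timp1*). The edgeR unadjusted p was then 0.094 for *Col1a1*, 0.077 for *Col3a1* and *Tnc* and 0.023 for *Timp1*, and none passed.

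*Spp1*, osteopontin, had 690 to 6408 CPM on day 21 and 192 to 3980 CPM on day 28 (log2 fold change -0.61, interval -1.43 to 0.22, edgeR adjusted p = 0.588), and the macrophage elastase *Mmp12* had -0.82 (-1.47 to -0.17, adjusted p = 0.261). *Tgfb1*, the cytokine that drives fibroblast activation, had 69.9, 104 and 149 CPM and then 69.5, 86.8 and 119 CPM, with 11 of 12 day 28 mice below the day 21 median. Its log2 fold change was -0.26 (interval -0.43 to -0.10, adjusted p = 0.101). The surfactant gene *Sftpc* of type 2 cells had an interval from -0.23 to 0.46 and *Ager* of type 1 cells one from -0.28 to 0.16. *Krt8*, raised in transitional epithelial cells, had a log2 fold change of -0.24 (-0.46 to -0.018, adjusted p = 0.363), and *Cdkn1a*, the p21 inhibitor of the cell cycle, had -0.21 (-0.47 to 0.053, adjusted p = 0.550). Mouse 10 was the lowest day 28 mouse for *Spp1*, *Mmp12*, *Tgfb1*, *Krt8* and *Cdkn1a*. Without it their log2 fold changes were -0.50, -0.73, -0.24, -0.19 and -0.15, in that order, and none passed. The edgeR unadjusted p was then 0.030 for *Mmp12*, 0.0052 for *Tgfb1* and 0.088 for *Krt8*.

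By list, 38 of 49 gene lists had no gene called with mouse 10 and 47 had none without it. Among the 26 tested collagens, 1 was higher (*Col6a6*, at its highest in mouse 10), 6 had an unadjusted p under 0.05 in the lower direction (3 without mouse 10) and the median was -0.26. The 26 collagen processing genes had 10 in that direction (6 without mouse 10) and a median of -0.21. The 25 genes of lipid-associated macrophages had 9 (6 without mouse 10) and a median of -0.26, and the 22 of transitional and basal epithelium had 8 (6 without) and a median of -0.21. In these last 3 lists 0 genes were called by edgeR. Among all tested genes, 6.71% had an unadjusted p under 0.05 in the lower direction with mouse 10 and 5.23% without it.

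The lists of lung cell types had few or no genes called. The median log2 fold change was 0.074 for 20 type 2 cell genes, -0.027 for 20 type 1 cell genes, 0.053 for 29 blood endothelial genes, 0.038 for 24 fibroblast genes and 0.13 for 30 T cell genes, with 0 called in each by edgeR and 0, 1, 0, 1 and 0 at an unadjusted p under 0.05 in the lower direction (0, 0, 0, 1 and 0 in the higher). The airway lists had medians of 0.33 for 20 secretory cell genes (15 positive) and 0.11 for 20 ciliated cell genes (19 positive), and of 0.32 and 0.15 without mouse 10. Of all tested gene symbols, 8406 of 16219 were positive. In both airway lists 0 genes were called, with 1 and 0 at an unadjusted p under 0.05 in the higher direction, against 5.42% of all genes. Genes of a list were measured in the same mice and are not separate observations. The 21 alveolar macrophage genes had a median of -0.13 and 2 called higher, *Fabp4* and *Cidec*, both at their highest in mouse 10. The lung marker *Sftpc* was abundant in every library, at 5267 to 18430 CPM on day 21 and 6053 to 17940 CPM on day 28.

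**Figure D4:**
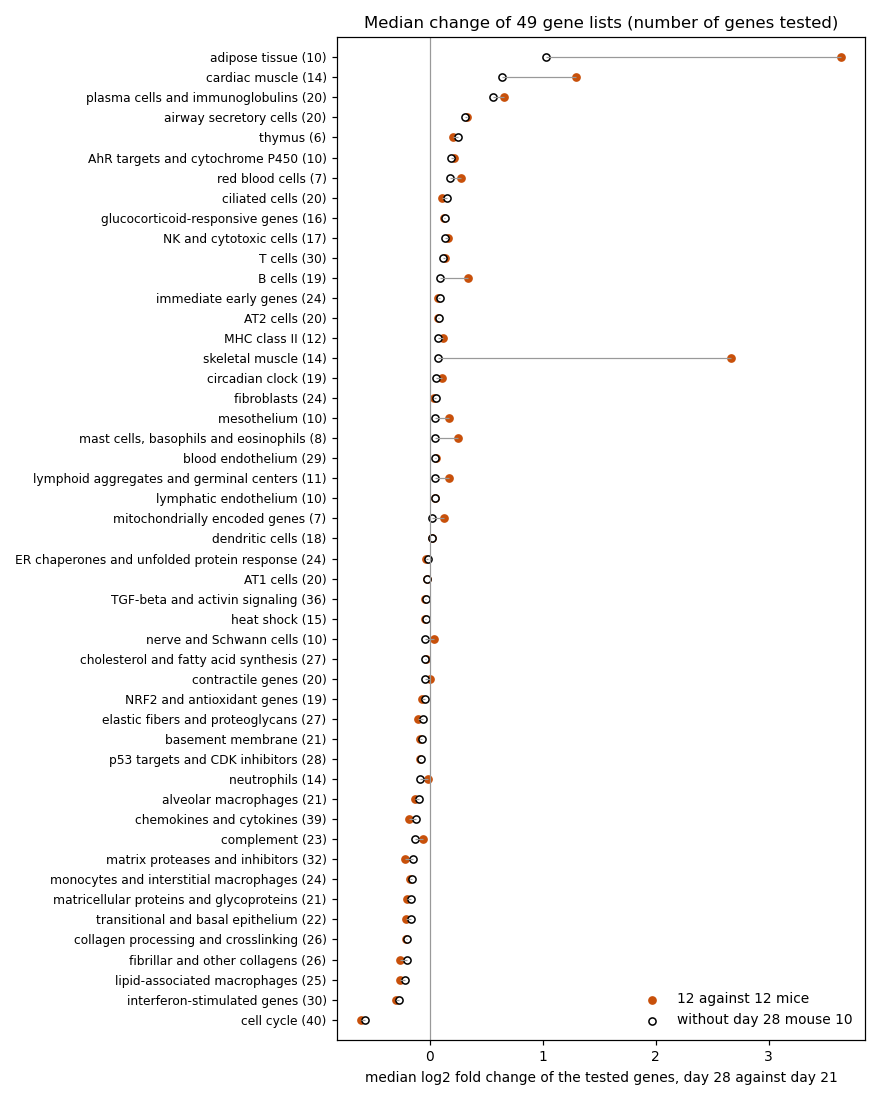
Median log2 fold change of day 28 over day 21 (horizontal axis) of the tested genes of each of 49 lists (vertical axis, number tested in brackets), with all mice in orange and without day 28 mouse 10 as open circles. The cell cycle list has a median of -0.61 and -0.58, whereas the skeletal muscle list goes from 2.67 to 0.074.

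Leaving out each of the 24 mice in turn kept *Nrm*, *Mcm3*, *Cdt1*, *Mcm4* and *Orc1* called in 24 of 24 refits by edgeR, with the highest adjusted p, 0.0388 for *Mcm4* and *Orc1*, without mouse 10 of day 28. The calls also depended on which mice entered the fit. The test above used all 75 mice for the filter, the scaling and the spread. With the 24 mice alone, which changed these together, 1 of 14902 genes was lower (*Nrm*, edgeR adjusted p = 0.0266) and 0 were higher, with 675 and 673 at an unadjusted p under 0.05. *Mcm3* and *Cdt1* then had an adjusted p of 0.231 and *Mcm4* and *Orc1* one of 0.242, at nearly the same fold changes (-0.53, -0.56, -0.33 and -1.03). Without mouse 10 as well, 0 genes were called in either direction in the 23 mice, and *Nrm* had an adjusted p of 0.0593. DESeq2 without mouse 10 called 19 genes lower, all among the 51, and 2 higher (*Dbndd2* and *Igkv4-59*).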

How the data were processed

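The authors deposited raw read counts per gene, 1 column per mouse for all 75 mice, with 55536 Ensembl genes, and no normalized values. Libraries were made with a directional poly(A) kit. The submitters' processing notes name STAR 2.7.0f and GRCm38, and the counting program and its strand setting are not given in the sources used here. All gene IDs were matched to GENCODE vM21.

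Counts were filtered (filterByExpr), scaled by TMM and fitted with edgeR 4.0.16 in R 4.3.3, with 1 mean per group over 75 mice, quasi-likelihood F tests of day 28 against day 21 and Benjamini-Hochberg adjustment over all genes tested (threshold 0.05). Intervals are 95% intervals of the fit. The count precision is set by 9249037 to 13704519 counts per library. Alternatives used DESeq2 1.42.0, other scalings and filters, the 24 mice alone and each mouse left out.

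Named were the 6 largest changes and the 6 lowest adjusted p-values per direction among genes called with and without mouse 10 with a mean log2 CPM above 1 and a protein-coding or lincRNA symbol (no clone or immunoglobulin segment), up to 3 called genes per list and 14 genes whatever their result. Some genes that the rule names are not reported here. The genes named and the lists were chosen with earlier results of these data known. Replicate numbers were shared between the days, but same-numbered mice deviated together in only 6 of 12 pairs (correlation over 0.1), and the numbers were not taken as pairs.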

Additional observations from a re-analysis of the deposited data

How the results depend on the processing

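The 40 cell cycle genes kept a negative log2 fold change under all 35 alternatives, with medians between -0.70 and -0.53, while 0 to 35 of them were called lower. Counts of calls depended on the setting, the cause of which was not tested. Against 67 genes higher and 51 lower, the 24 mice alone gave 0 and 1, and with the replicate number as a block 3 and 20 (19 of the 20 shared; 1 of 12 mice correlated best with its own number). At least 10 counts in every mouse gave 18 and 25, no filter 106 higher, library size alone 31 lower, DESeq2 78 lower and an absolute log2 fold change of at least 0.5 gave 33 lower. Chosen after seeing the data, DESeq2 without day 28 mouse 10 gave 2 and 19, the 24 mice less that mouse 0 and 0 (450 and 528 at an unadjusted p under 0.05 in edgeR), and day 28 less mice 3, 4 and 10 gave 0 and 2.

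With each mouse left out in turn, 2 to 168 genes were higher and 5 to 203 lower. The fewest, 2 and 5, came without day 28 mouse 10, and the most, 168 and 203, without day 28 mouse 2. Other mice moved the lower count by over 1.5 times: without day 21 mice 2, 3, 5 and 10 it was 30, 21, 14 and 16, and without mice 7 and 8 it was 121 and 180. Without day 28 mice 1, 5 and 6 it was 166, 78 and 129, and without mice 3, 7, 8 and 11 it was 24, 30, 20 and 20. The higher count was 141 and 103 without day 28 mice 1 and 6, and 36, 105, 113 and 40 without day 21 mice 5, 7, 8 and 10.

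Of 1098 refits of the 35 named genes, 2 turned the direction, both of *Tnnt3* (3.81): -0.13 in DESeq2 and -0.15 without day 28 mouse 10, the lowest value with a mouse left out (the highest was 3.97). *Tgfb1* passed the test (-0.31) without day 28 mouse 1 or day 21 mouse 8. Depth limited *Orc1*, with 5 to 29 counts per mouse.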
